A study of Homo sapiens with 6 samples.

Results

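The protocadherins are a family of cadherin-like proteins of the cell surface, and their transcripts were followed in WM-266.4 cells, an established human metastatic melanoma line, after siRNA against PIR, the gene of Pirin, a nuclear protein that binds iron. The genes taken were all those whose symbol starts with PCDH and that had a probe set annotated to that gene alone, and the brightest such probe set stood for each gene. This gave 48 genes of 64 with a PCDH symbol in the array annotation, and of 19775 genes in all. They comprised 15 PCDHB genes, 6 PCDHA genes, 12 PCDHG genes, 11 non-clustered protocadherins, 3 pseudogenes and the non-coding RNA PCDH10-DT. The other 16 had no probe set of their own: 9 PCDHA genes, 4 PCDHG genes, PCDHB10, PCDH11Y and PCDH20. The PCDHB genes had already been seen to be higher after the knock-down when the family was chosen, so the differences below are a description and carry no test.

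Cells seeded 24 h earlier received 200 pmol of a siGENOME Smartpool of 4 duplexes against PIR (siPIR), 200 pmol of an on-target plus pool of 4 non-targeting duplexes (siCTR), or Oligofectamine alone (NO), and were harvested 72 h later. All 3 groups were thus WM-266.4 cells carried through the transfection procedure, and the 2 siRNA pools came from different product lines. The RNA of 3 extractions was mixed into 1 pool per group, and each pool was hybridised to 2 Affymetrix HG-U133 Plus 2 arrays. The 2 arrays of a pool repeat 1 RNA sample, so n = 1 pool per group, the spread between arrays is technical, and no test of the conditions was possible. In RNA of a whole culture, fewer cells of a kind and less RNA per cell cannot be told apart.

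Values are probe set intensities, and a difference is on the log2(intensity + 5.4) scale, with the 2 arrays of a pool averaged. A gene counted as measured where any pool's mean passed 70.2, which is the median over the 6 arrays, and as bright where it passed 458.4, the 75th percentile. A gene was called where the 2 pools differed by at least 1 on that scale and their arrays did not overlap, and "rose" and "fell" below stand for calls. PIR itself read 392 and 382 in siPIR, against 13544 and 13180 in siCTR and 13990 and 14153 in NO, a difference of -5.09 from siCTR and -5.17 from NO. All 7 melanocyte and melanoma markers with a probe set were bright. Median array intensities lay between 64.2 and 74.8.

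Clustered protocadherins lie in 3 tandem clusters on the long arm of chromosome 5, in the order alpha (PCDHA), beta (PCDHB) and gamma (PCDHG). Each alpha and gamma gene is a large first exon with its own promoter that is spliced to exons shared by its cluster, whereas each beta gene is complete in 1 exon. In neurons, where they are best known, each cell uses a subset of these promoters, which are bound by CTCF and cohesin and silenced by DNA methylation, and the proteins give cells a surface identity through binding to like molecules on other cells. The non-clustered protocadherins lie outside these clusters and act in adhesion, axon growth and cell sorting.

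The beta promoters share a short sequence near the gene start. It is shown here because the family was chosen after PCDHB genes were seen to be higher. RefSeq windows from 250 bases before to 50 bases after the start (GRCh38.p14) were present for 14 PCDHB genes. The letters GGCGCT occurred on the gene's strand in 13 of these 14 windows, against 12.6% of 35116 windows of all genes. With both strands searched the share in all windows was 21.7%. The lines below give 44 bases around these letters, 5′ to 3′ on the plus strand, for the gene with the largest difference (PCDHB14), 4 other genes that were higher in siPIR, PCDHB4, which was not, and PCDHB1, which was below the limit of measured genes. Capitals mark GGCGCT, or in PCDHB1 the closest stretch.
PCDHB14: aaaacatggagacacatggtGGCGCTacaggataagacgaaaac
PCDHB3: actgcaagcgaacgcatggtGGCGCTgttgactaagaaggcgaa
PCDHB15: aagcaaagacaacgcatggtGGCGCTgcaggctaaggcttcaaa
PCDHB7: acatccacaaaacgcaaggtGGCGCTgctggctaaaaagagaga
PCDHB2: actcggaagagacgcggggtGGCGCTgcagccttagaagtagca
PCDHB4: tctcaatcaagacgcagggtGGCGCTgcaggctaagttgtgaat
PCDHB1: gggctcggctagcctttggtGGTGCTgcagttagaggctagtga

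These stretches lie at chr5:141223257-141223300 (PCDHB14), chr5:141100387-141100430 (PCDHB3), chr5:141245308-141245351 (PCDHB15), chr5:141172560-141172603 (PCDHB7), chr5:141094538-141094581 (PCDHB2), chr5:141121717-141121760 (PCDHB4) and chr5:141051331-141051374 (PCDHB1). The first capital lies 66 bases upstream of the annotated start in PCDHB14 and PCDHB3, 67 in PCDHB15, 64 in PCDHB7, 57 in PCDHB2, 81 in PCDHB4 and 23 in PCDHB1. PCDHB1 differs from the motif by C3T, counted from 1 at the first base of GGCGCT. The 13 windows with the motif shared an identical run of 9 bases, GGTGGCGCT, a run picked after the windows were aligned. On the gene's strand it occurred in 106 of all 35116 windows (0.302%), and in none of the 13 PCDHA, 25 PCDHG and 15 non-clustered windows. PCDHB4 held the same run as PCDHB14, so the letters did not separate the gene with no difference from those with one. PCDHB6 and PCDHB11 were not among the windows.

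The shorter letters CGCT, which GGCGCT contains and which belong to the conserved element described in clustered protocadherin promoters, stood on the gene's strand in 14 of 14 PCDHB, 12 of 13 PCDHA and 25 of 25 PCDHG windows. They stood in 54.3% of all windows, or 70.0% with both strands. On the gene's strand GGCGCT occurred in 0 of 13 PCDHA, 5 of 25 PCDHG (3 genes) and 1 of 15 non-clustered windows. With both strands it occurred in 1 PCDHA, 11 PCDHG (9 genes) and 2 non-clustered windows, and in 13 of 14 PCDHB windows. The letters AGNNGGC, taken from the CTCF consensus, were in 8 of 14 PCDHB windows and in 43.7% of all windows (64.2% with both strands). A TATAAA stretch was in 1 of 14 PCDHB windows and in 7.33% of all windows (11.5% with both strands).

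PCDHB transcripts were higher in siPIR than in both controls along nearly the whole beta cluster. Of the 15 PCDHB genes, 13 were measured, all of them bright (PCDHB14 and PCDHB15 through siPIR alone), and 12 of these 13 had both siPIR arrays above all 4 control arrays. The corresponding share was 28.4% of all measured genes and 34% of bright genes. The median difference of the 13 genes was 0.79 from siCTR and 0.82 from NO, while the median of all measured genes was 0.05 and 0.03. In size, 3 of the 13 rose at least 2-fold against both controls, PCDHB14, PCDHB3 and PCDHB11, where 1.47% of all measured genes and 0.907% of bright genes did so. At a limit of 0.58 on the log2 scale 10 of the 13 passed against both controls, where 6.4% of all measured genes did; PCDHB4, PCDHB6 and PCDHB16 did not, and PCDHB2 and PCDHB13 lay at the limit against siCTR, at 0.58 each. No measured PCDHB gene fell against both controls, where 3.2% of all measured genes did, and none had both siPIR arrays below all control arrays, where 23.1% did.

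**Figure D1:**
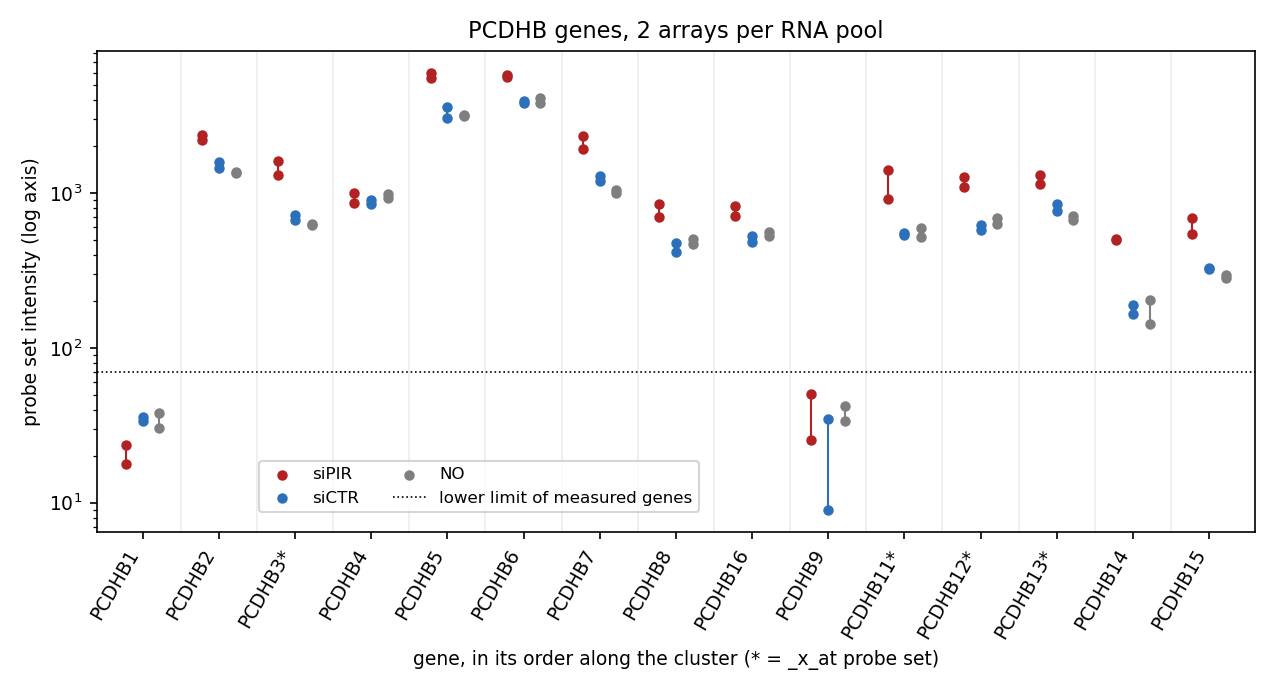
Probe set intensity (log axis) of the 15 PCDHB genes, in their order along the cluster, with 1 point per array, the 2 arrays of a pool joined by a line, and the pools in the order siPIR, siCTR, NO. In 12 of the 13 genes above the dotted limit of 70.2 both siPIR points lie above all 4 control points; PCDHB4 is the exception, and PCDHB1 and PCDHB9 lie below the limit.

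PCDHB14 differed most. It read 502.1 and 496.1 in siPIR, against 166.2 and 189.7 in siCTR and 203.1 and 143.6 in NO. The siPIR arrays agreed closely and lay far above every control array, and the 2 controls overlapped each other. The difference was 1.46 from siCTR (1.36 to 1.56 over the 4 pairs of arrays) and 1.52 from NO (1.27 to 1.77), or 2.76-fold and 2.86-fold. PCDHB14 has 1 probe set, which is not of the _x_at kind, the kind that the manufacturer marks as likely to bind related transcripts as well.

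PCDHB3 read 1308.9 and 1603.7 in siPIR, against 720.3 and 670.0 in siCTR and 635.9 and 622.5 in NO, a rise of 1.05 and 1.20. All control arrays were well below both siPIR arrays. This probe set is of the _x_at kind. A dimmer _x_at probe set of PCDHB3 read 396.2 and 820.1 in siPIR, against 272.4 and 289.0 in siCTR and 385.6 and 466.3 in NO, so there the siPIR and NO arrays overlapped. The remaining probe set of PCDHB3, not of that kind, stayed below the limit of 70.2 in all 3 pools.

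PCDHB11 read 1401.0 and 920.4 in siPIR, against 534.1 and 554.5 in siCTR and 590.5 and 517.4 in NO. Both siPIR arrays were above all control arrays, but they differed from each other by 0.60, the largest gap between repeat arrays among the measured PCDHB genes, whose median gap was 0.117. PCDHB11 rose by 1.05 and 1.03, on an _x_at probe set. With the second siPIR array left out, PCDHB11 and PCDHB14 were called and PCDHB3 was not; with the first left out, PCDHB3, PCDHB14 and PCDHB15 were called and PCDHB11 was not. PCDHB11 also lost its call without the second NO array, and PCDHB3 with the mean over its probe sets.

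A group of genes came close to the 2-fold limit in both comparisons. PCDHB15 read 545.7 and 687.3 in siPIR, against 323.0 and 329.7 in siCTR and 296.5 and 284.7 in NO. It was 0.90 above siCTR and rose by 1.06 against NO. PCDHB7 read 2343.4 and 1939.1 in siPIR, against 1195.7 and 1289.4 in siCTR and 1051.5 and 997.4 in NO, 0.78 above siCTR with a rise of 1.05 against NO. In both genes the arrays of the 3 pools did not overlap, and siCTR lay between siPIR and NO.

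PCDHB12, on an _x_at probe set, read 1262.7 and 1094.2 in siPIR, against 623.5 and 579.8 in siCTR and 635.9 and 689.9 in NO (0.96 and 0.82). PCDHB5 read 5996.2 and 5525.5 in siPIR, against 3033.4 and 3618.1 in siCTR and 3132.0 and 3190.0 in NO (0.80 and 0.86). PCDHB8 read 856.0 and 701.7 in siPIR, against 418.0 and 477.5 in siCTR and 503.9 and 471.1 in NO (0.79 and 0.66). In these 3 genes the siPIR arrays stood clear of the controls, by less than 2-fold on average.

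The smaller differences were those of PCDHB13, PCDHB16, PCDHB2 and PCDHB6, of 0.56 to 0.59 from siCTR and 0.48 to 0.81 from NO. PCDHB2 read 2193.8 and 2387.1 in siPIR, against 1597.2 and 1454.5 in siCTR and 1340.4 and 1366.2 in NO. PCDHB6 read 5826.8 and 5579.5 in siPIR, against 3806.3 and 3942.8 in siCTR and 3820.1 and 4106.0 in NO. The siPIR arrays were the highest in each. PCDHB16 read 708.9 and 819.7 in siPIR, against 529.7 and 483.9 in siCTR and 527.1 and 560.8 in NO. PCDHB13, on an _x_at probe set, read 1301.4 and 1139.4 in siPIR, against 767.3 and 855.8 in siCTR and 714.2 and 667.8 in NO. Its second probe set, not of the _x_at kind, gave 0.58 and 0.64 with no overlap, and the second probe set of PCDHB6, an _x_at one, gave 0.52 and 0.98 with no overlap.

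PCDHB4 was the exception among the measured genes. It read 997.6 and 857.3 in siPIR, against 852.4 and 897.5 in siCTR and 985.8 and 924.0 in NO, and the arrays of all pools overlapped except that both siCTR arrays were below both NO arrays. The difference was 0.08 from siCTR (-0.07 to 0.23 over the pairs) and -0.05 from NO (-0.20 to 0.11). Its second probe set gave -0.08 and -0.14. PCDHB4 lies between PCDHB3 and PCDHB5, which were 1.05 and 0.80 above siCTR.

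PCDHB1 and PCDHB9 were below the limit of measured genes. PCDHB1 read 23.5 and 17.8 in siPIR, against 35.9 and 33.8 in siCTR and 30.4 and 38.2 in NO, and was the only PCDHB gene of the 15 with both siPIR arrays below all control arrays. PCDHB9 read 25.6 and 50.7 in siPIR, against 34.5 and 9.0 in siCTR and 42.0 and 33.8 in NO, with overlap throughout. At this brightness repeat arrays of 1 pool differed widely: over the 20 protocadherins that were not measured the median gap between repeat arrays was 0.68.

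Some beta genes were read by _x_at probe sets. The 4 PCDHB genes on such probe sets had median differences of 1.01 from siCTR and 0.93 from NO, against 0.78 and 0.76 for the 9 measured genes on other probe sets. Of these 9, 8 had both siPIR arrays above all controls and 1, PCDHB14, was called against both. Of all bright genes, 0.984% on _x_at probe sets and 0.902% on others were called higher against both controls, and 35.6% and 33.9% had siPIR arrays above all controls. The difference between these medians was not tested. Among the PCDHB genes called against both controls, PCDHB3 and PCDHB11 were on _x_at probe sets and PCDHB14 was not. How much signal of 1 beta gene reached the probes of another was not tested.

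**Figure D2:**
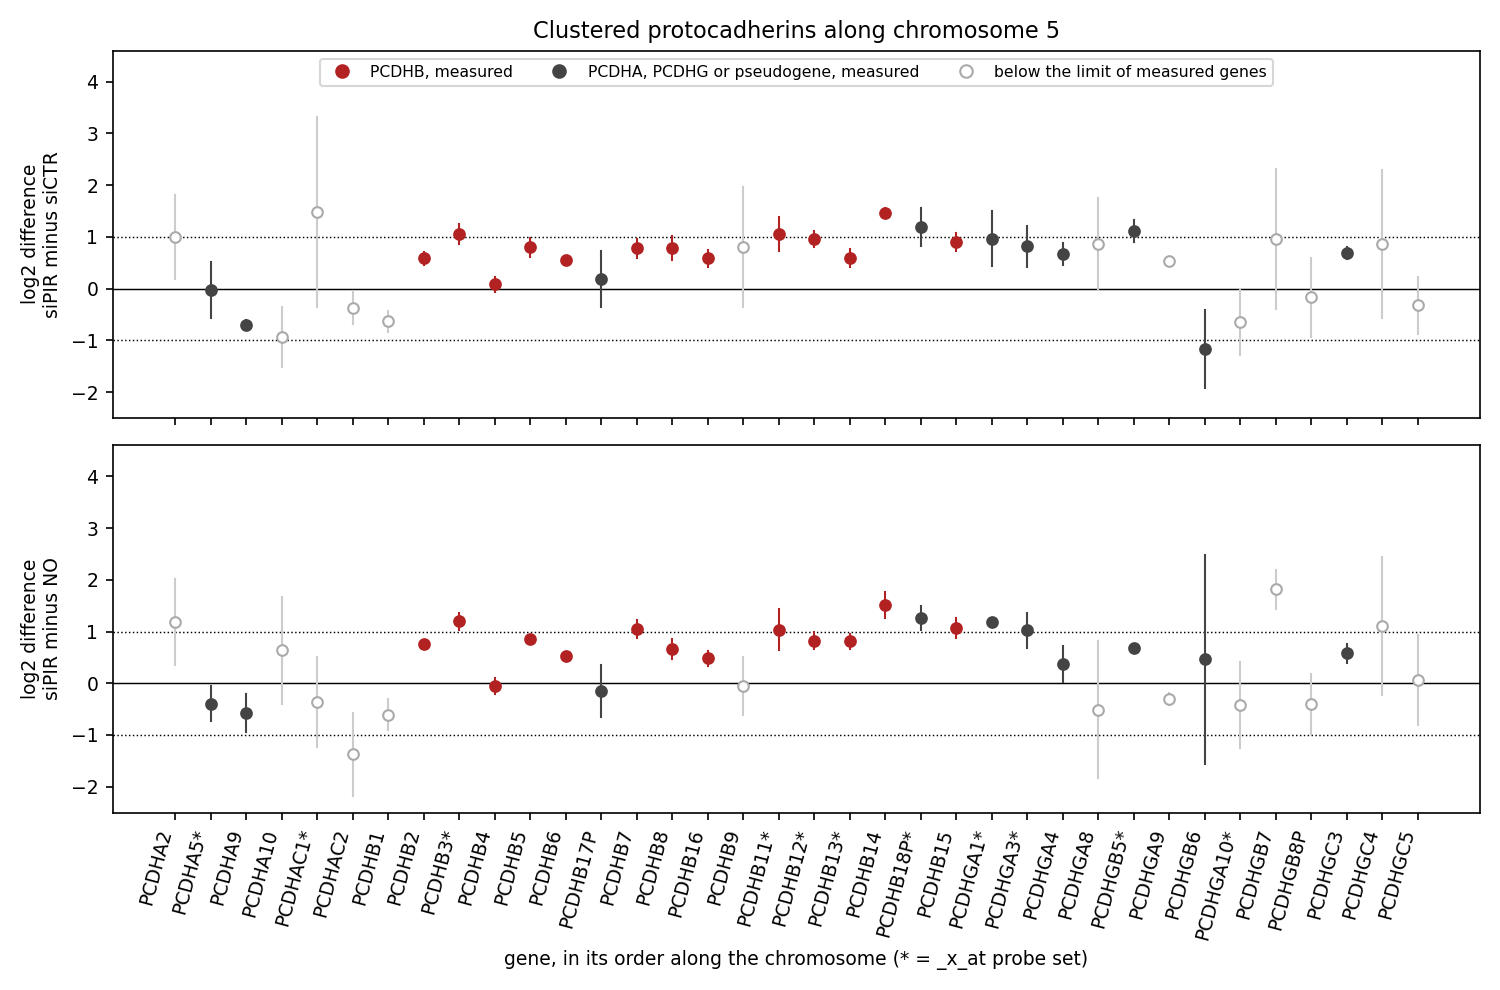
Log2 difference of siPIR from siCTR (upper panel) and from NO (lower panel) for the clustered protocadherins and their pseudogenes in their order on chromosome 5. Points are differences of pool means, lines run from the lowest to the highest of the 4 pairs of arrays, and dotted lines mark a difference of 1 in size; 12 of the 13 measured PCDHB genes lie above 0 in both panels with lines clear of 0, while several genes below the limit (open points) have long lines that cross 0.

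PCDHB18P, a beta pseudogene that lies between PCDHB14 and PCDHB15, was also called. It read 1227.8 and 998.8 in siPIR, against 411.7 and 558.8 in siCTR and 432.2 and 486.7 in NO, and the siPIR arrays were clearly apart. The rise was 1.20 from siCTR and 1.26 from NO. The probe set is of the _x_at kind, the second probe set of the pseudogene stayed below the limit, and the call against both controls was lost without the first siCTR array. PCDHB17P read 134.3 and 120.0 in siPIR, against 154.8 and 79.0 in siCTR and 191.7 and 103.3 in NO, with overlap. PCDHGB8P was not measured.

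In the gamma cluster, 6 of 12 genes were measured, and 5 of these had both siPIR arrays above all control arrays, where 28.4% of all measured genes did. Their median difference was 0.75 from siCTR and 0.63 from NO, and none was called higher against both controls, where 1.47% of all measured genes were. PCDHGB5 read 402.0 and 419.2 in siPIR, against 164.0 and 212.8 in siCTR and 254.4 and 253.5 in NO, a rise of 1.11 against siCTR, where 3.66% of all measured genes rose, and 0.68 above NO. PCDHGA1 read 253.4 and 287.1 in siPIR, against 98.0 and 185.7 in siCTR and 116.2 and 116.5 in NO, 0.97 above siCTR with a rise of 1.18 against NO, where 3.6% of all measured genes rose. PCDHGA3 read 506.3 and 413.4 in siPIR, against 214.9 and 306.2 in siCTR and 193.2 and 254.8 in NO, 0.82 above siCTR with a rise of 1.03 against NO. These 3 gene readings come from _x_at probe sets, in which the siPIR arrays were the highest.

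The other 3 measured gamma genes were on probe sets of other kinds. PCDHGC3, a C-type member at the end of the gamma cluster, read 661.9 and 746.8 in siPIR, against 423.4 and 446.1 in siCTR and 503.2 and 437.3 in NO (0.69 and 0.58). Its second, dimmer probe set went the other way, by -0.56 from siCTR, with overlapping arrays, and by -1.85 from NO, a fall without overlap. PCDHGA4 read 276.6 and 324.4 in siPIR, against 173.2 and 200.8 in siCTR and 271.2 and 194.2 in NO (0.67 and 0.38), and here the lower siPIR array was only just above the higher NO array. PCDHGB6 fell against siCTR, with a difference of -1.17, where 4.21% of all measured genes fell. It read 17.6 and 43.1 in siPIR, against 81.2 and 59.6 in siCTR and 3.3 and 62.3 in NO, so it passed as measured through siCTR alone and its NO arrays lay on both sides of siPIR. PCDHGA8, PCDHGA9, PCDHGA10, PCDHGB7, PCDHGC4 and PCDHGC5 were not measured; PCDHGA10 is on an _x_at probe set.

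In the alpha cluster, 2 of 6 genes were measured and neither was higher. PCDHA9 read 58.3 and 55.7 in siPIR, against 91.9 and 101.3 in siCTR and 112.2 and 68.6 in NO (-0.71 and -0.58), with both siPIR arrays lowest. PCDHA5, on an _x_at probe set, read 152.8 and 115.0 in siPIR, against 173.6 and 105.9 in siCTR and 159.6 and 193.9 in NO (-0.03 and -0.39), with overlap against siCTR. PCDHA2, PCDHA10, PCDHAC1 and PCDHAC2 were not measured.

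Probe sets annotated to several genes, which stood for no gene above, give a joint reading of the genes they name. Among those of the alpha cluster, 3 name 15 PCDHA genes each, whose transcripts share their last exons. The brightest read 1354.8 and 1456.2 in siPIR, against 1049.0 and 1078.6 in siCTR and 769.9 and 895.8 in NO, 0.40 and 0.75 higher. The next read 845.2 and 781.5 in siPIR, against 512.2 and 683.1 in siCTR and 380.8 and 552.2 in NO (0.45 and 0.82). The dimmest read 361.7 and 448.4 in siPIR, against 334.5 and 296.3 in siCTR and 351.1 and 265.6 in NO (0.35 and 0.39). In all 3 the siPIR arrays were above every control array, whereas the genes measured alone, PCDHA9 and PCDHA5, had lower means in siPIR.

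Some of the other shared probe sets showed like differences. The probe set of PCDHB9 and PCDHB10 read 3669.2 and 3957.8 in siPIR, against 2031.2 and 2177.4 in siCTR and 2156.3 and 1958.9 in NO (0.86 and 0.89), with no overlap, while the probe set of PCDHB9 alone was below the limit. An _x_at probe set naming 7 PCDHG genes read 788.1 and 654.1 in siPIR, against 297.1 and 381.2 in siCTR and 291.5 and 378.8 in NO, and rose by 1.08 and 1.10. It was the 1 clustered-protocadherin probe set with several genes that was both measured and called against both controls. Of the 6 shared alpha probe sets all were measured, 4 had both siPIR arrays above all controls, and none was called against both. Among all measured genes, 28.4% had both siPIR arrays above all controls, 1.47% were called higher against both and 3.2% lower. The remaining probe sets with several names, 2 of PCDHG genes and 6 naming a non-clustered protocadherin, were below the limit except 1, for PCDH11X and PCDH11Y, which was not called against both.

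**Figure D3:**
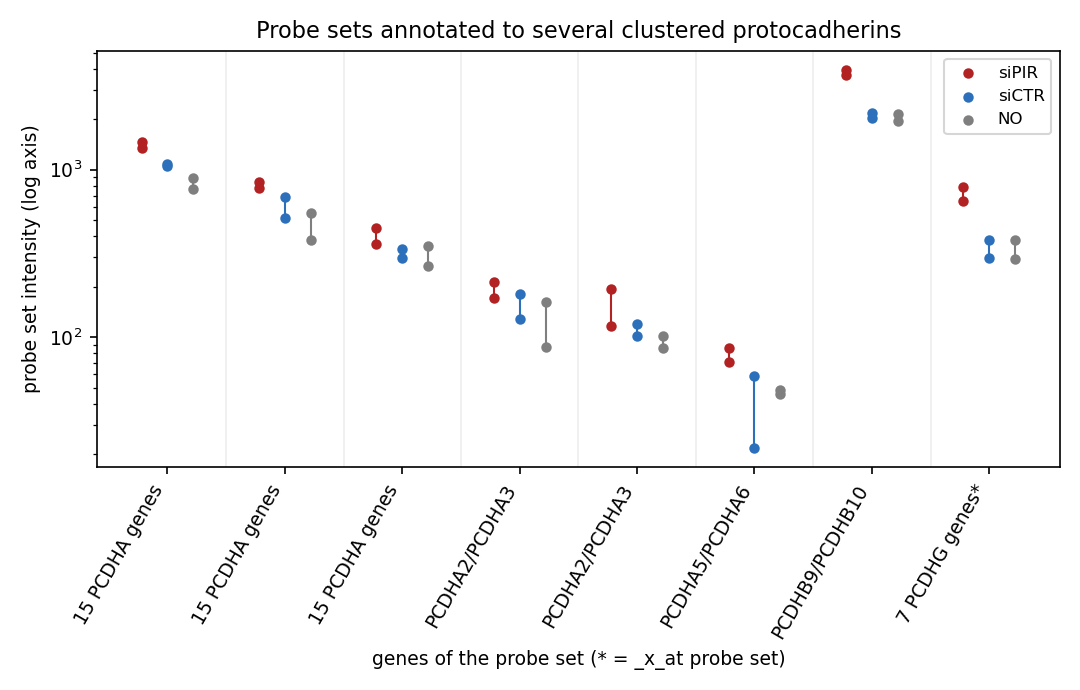
Intensity (log axis) of the 8 measured probe sets that name several clustered protocadherins, 1 point per array, with the 2 arrays of a pool joined and the pools in the order siPIR, siCTR, NO. Both siPIR points lie above all control points in 6 of them, and the 2 probe sets of PCDHA2 and PCDHA3 overlap a control.

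Among the 11 non-clustered protocadherins 5 were measured and none was called in siPIR against both controls. Of all measured genes, 1.47% were called higher against both and 3.2% lower. PCDH9, a brain-enriched protocadherin of the delta group, was higher in siPIR: 2933.3 and 2911.8, against 1821.3 and 1834.0 in siCTR and 1741.2 and 1751.3 in NO. Repeat arrays agreed closely and the pools were apart, with differences of 0.68 and 0.74. All 4 probe sets of PCDH9 were higher in siPIR than in either control, by 0.31 to 1.30 from siCTR and 0.34 to 0.88 from NO, but the arrays of 2 of them overlapped those of a control.

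PCDH7, another delta protocadherin, gave opposite readings on different probe sets. The brightest read 4478.0 and 4285.9 in siPIR, against 5601.4 and 6321.6 in siCTR and 4822.9 and 4893.2 in NO, a difference of -0.44 from siCTR and -0.15 from NO. The second read 4312.3 and 4385.3 in siPIR, against 2848.6 and 3242.8 in siCTR and 2349.9 and 2333.1 in NO, higher by 0.52 and 0.89. In both the pools did not overlap. The other 3 probe sets were also higher in siPIR, without overlap, by 0.18 to 0.40 from siCTR and 0.43 to 0.62 from NO. Thus 4 of the 5 had the opposite sign to the one that stands for the gene, so PCDH7 has no settled direction here.

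PCDH12, also known as vascular endothelial cadherin 2, read 167.6 and 171.2 in siPIR, against 25.1 and 52.5 in siCTR and 108.8 and 127.0 in NO. The siPIR arrays were highest and the siCTR arrays lowest. PCDH12 rose by 2.06 against siCTR and was 0.51 above NO, while siCTR fell against NO, with a difference of -1.55. Of the 5 endothelial markers checked, 2 were measured, PECAM1 and KDR, and neither was bright. CDH5, VWF and TEK were below the limit of measured genes. The summed level of the 5 markers was 473 to 556 in siPIR, against 423 to 443 in siCTR and 568 to 709 in NO.

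PCDH1 read 167.2 and 192.5 in siPIR, against 236.9 and 44.2 in siCTR and 172.5 and 229.3 in NO. Its siCTR arrays lay on both sides of siPIR and no direction can be read from it. PCDH17 read 71.8 and 53.6 in siPIR, against 141.7 and 68.8 in siCTR and 70.2 and 84.2 in NO, with overlap. The 6 genes PCDH8, PCDH10, PCDH11X, PCDH15, PCDH18 and PCDH19 were not measured. PCDH15, a component of the tip links of inner-ear hair cells, read 22.1 and 24.6 in siPIR, against 13.6 and 0.7 in siCTR and 1.9 and 0.7 in NO. It passed the size of a call against both controls with no overlap, but all its values lie below the limit; with no such limit 2.09% of all genes were called higher against both controls. PCDH10-DT, transcribed divergently from PCDH10, was not measured either.

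**Figure D4:**
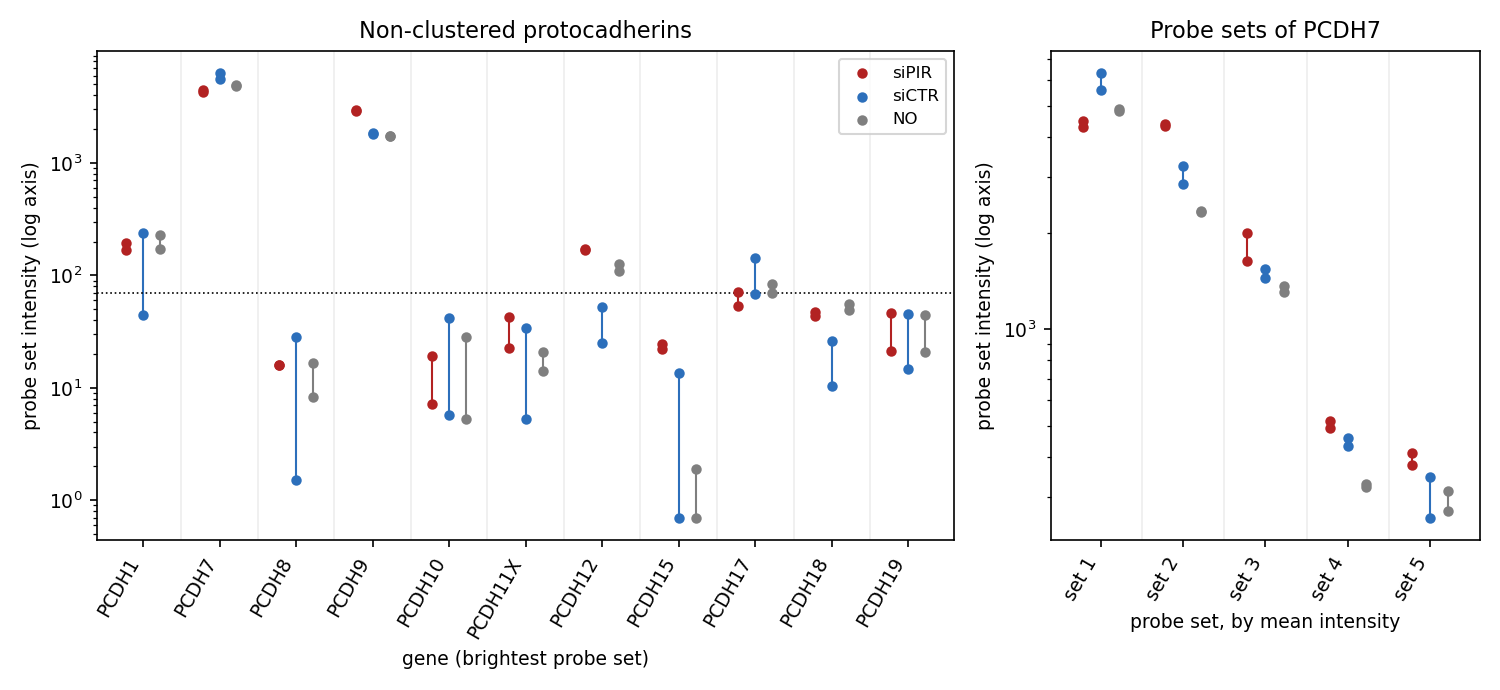
Intensity (log axis) of the 11 non-clustered protocadherins on their brightest probe set (left) and of the 5 probe sets of PCDH7 (right), 1 point per array, pools in the order siPIR, siCTR, NO, with the dotted line at 70.2. PCDH9 has siPIR above both controls, and PCDH7 has siPIR lowest on set 1 and highest on the other 4 sets.

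Set side by side, the 15 measured protocadherins that are not PCDHB genes had a median difference of 0.68 from siCTR and 0.46 from NO, and 8 of them had both siPIR arrays above all controls and 2 below all controls, PCDHA9 and PCDH7 (28.4% and 23.1% of all measured genes). The PCDHB genes had 0.79 and 0.82, and 12 of 13. Of the 15 others 5 were bright, PCDHGC3, PCDHGA3, PCDHB18P, PCDH9 and PCDH7, and PCDHGA3 was so only through siPIR, as were PCDHB14 and PCDHB15 among the PCDHB genes. These 5 bright others had medians of 0.69 from siCTR and 0.74 from NO. Of them 4 had both siPIR arrays above all controls and 1, PCDH7, below (34% and 29% of bright genes). PCDHB18P alone of the 5 was called against both, where 0.907% of bright genes were called higher. The difference between the 2 sets was not tested.

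The comparisons with siCTR and with NO share the siPIR arrays, so their likeness is no separate evidence. The 2 controls can be compared directly. Between siCTR and NO no measured PCDHB gene was called, and the 13 differences ran from -0.14 to 0.28 with a median of 0.05. The siPIR differences of the same 13 genes ran from 0.08 to 1.46 against siCTR and from -0.05 to 1.52 against NO. PCDHB4 was the lowest in both. The arrays of the 2 controls did not overlap in 7 of the 13, with siCTR higher in 5 and lower in 2, where 28.1% of all measured genes had siCTR higher and 24.9% lower. Across all measured genes 0.996% were called higher and 2.4% lower in siCTR than in NO. Among the other 15 protocadherins 1 was called, PCDH12, lower in siCTR.

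Genes next to the clusters were looked at from a list of 18, of which 17 were measured. Of these 17, 8 had both siPIR arrays above all controls and 1, DIAPH1, below (28.4% and 23.1% of all measured genes), and the median difference was 0.10 from siCTR and 0.26 from NO. TAF7, a subunit of the general transcription factor TFIID, is encoded between the beta and gamma clusters. It read 5920.4 and 6373.1 in siPIR, against 3239.0 and 3505.4 in siCTR and 3369.1 and 3335.9 in NO (0.87 and 0.87), with the siPIR arrays clearly higher. CD14, a lipopolysaccharide co-receptor, read 274.9 and 289.9 in siPIR, against 148.6 and 152.3 in siCTR and 61.4 and 122.9 in NO (0.88 and 1.64). FCHSD1 was called higher against both controls (2.10 and 1.19), but its siCTR arrays read 135.5 and 5.4, and its other probe set gave -0.40 and -1.04.

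On the far side of the gamma cluster, HDAC3, a histone deacetylase, read 1006.3 and 987.3 in siPIR, against 995.8 and 1002.4 in siCTR and 1020.0 and 984.9 in NO. DIAPH1, an actin nucleator encoded beside it, had -0.36 from siCTR and -0.43 from NO. Another probe set of DIAPH1 gave 0.45 from siCTR and -0.44 from NO, and a further one 0.12 and -0.37. RELL2, from the same list, was 0.68 above siCTR and 0.79 above NO, without overlap. Elsewhere in the list of neighbours, without regard to side, ARAP3 was 0.17 and 0.35 above, and ZMAT2 0.59 and 0.53, also without overlap. These genes were picked for mention after their values were seen.

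Regulators known for the clustered protocadherins, among them CTCF, the cohesin subunits and loaders, and DNA and histone methylation factors, were listed as 24 genes, of which 23 were measured. None was called against both controls, where 1.47% of all measured genes were called higher and 3.2% lower. Of the 23, 6 had siPIR arrays above all controls and 11 below (28.4% and 23.1% of all measured genes). The median difference was -0.08 from siCTR and -0.12 from NO. SMC3, a core subunit of cohesin, read 1179.3 and 1363.2 in siPIR, against 2505.6 and 2482.3 in siCTR and 2521.1 and 2713.1 in NO (-0.97 and -1.04). The 4 probe sets of SMC3 ran from -0.97 to -0.02 against siCTR. DNMT1, the maintenance DNA methyltransferase, read 1840.4 and 1836.6 in siPIR, against 3297.8 and 3533.5 in siCTR and 3304.0 and 3042.8 in NO (-0.89 and -0.78). In both genes the siPIR arrays were lowest.

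Further regulators were picked after their values were seen. RAD21, another cohesin subunit, was lower in siPIR, with differences of -0.64 from siCTR and -0.88 from NO. SMCHD1, a chromatin protein that represses clustered protocadherins in mouse, had -0.62 and -0.60. REST, a repressor of neuronal genes, had -0.55 and -0.96 on its brightest probe set. A dimmer probe set of REST went the other way, by 0.54 from siCTR and 0.60 from NO. Its means were 112.6 in siPIR, 93.25 in siCTR and 72.35 in NO. The dimmest probe set of REST gave -0.19 and -1.02. CTCF read 1519.8 and 1399.2 in siPIR, against 1960.3 and 1749.6 in siCTR and 1816.3 and 1890.0 in NO (-0.34 and -0.34). Of the 6 with siPIR arrays above all controls, TET3, an enzyme that oxidises methylated cytosine, had 0.52 and 0.59, SETDB1, a histone methyltransferase, had 0.37 and 0.41, and DNMT3A, a de novo DNA methyltransferase, had 0.28 and 0.43. Any link of these levels to the protocadherins was not tested.

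Proteins that work with protocadherins inside the cell, such as the WAVE complex and focal adhesion kinases, gave 17 measured genes of 19 listed. None was called against both controls, where 1.47% of all measured genes were called higher and 3.2% lower. Of the 17, 4 had siPIR arrays above all controls and 3 below (28.4% and 23.1% of all measured genes), and the medians were 0.10 and 0.09. TAOK2, a kinase that acts with a protocadherin in rat neurons, read 411.9 and 378.2 in siPIR, against 171.3 and 205.1 in siCTR and 206.3 and 266.4 in NO. This was a rise of 1.05 against siCTR and 0.74 above NO. A dimmer probe set of TAOK2 gave 0.98 from siCTR and 0.38 from NO, and the dimmest 0.74 and -0.05. RET, a receptor tyrosine kinase, read 193.8 and 228.7 in siPIR, against 111.5 and 178.7 in siCTR and 59.0 and 202.6 in NO, so its siPIR and NO arrays overlapped.

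The rest of the cadherin superfamily was listed as 47 genes, of which 16 were measured. None was called against both controls, where 1.47% of all measured genes were called higher and 3.2% lower. Of the 16, 8 had siPIR arrays above all controls and 1 below (28.4% and 23.1% of all measured genes), and the medians were 0.34 and 0.35. CDHR2 read 105.4 and 139.1 in siPIR, against 61.5 and 16.8 in siCTR and 77.5 and 82.9 in NO (1.72 and 0.56), and CDH11 read 1.9 and 54.1 in siPIR, against 95.0 and 50.0 in siCTR and 49.2 and 48.3 in NO, with overlap. CDH19, a cadherin of the neural crest lineage chosen after its values were seen, read 7402.3 and 7790.9 in siPIR, against 3665.0 and 4252.5 in siCTR and 3711.1 and 3509.8 in NO (0.94 and 1.07). CELSR3, a large cadherin with a receptor-like membrane part, chosen in the same way, was 0.88 above siCTR and 0.90 above NO.

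Summed levels of markers of other cell types also differed between the pools, in both directions. The summed level of 5 fibroblast genes was 23030 to 23882 in siPIR, against 14585 to 15784 in siCTR and 12582 to 12722 in NO, with 3 of the 5 measured and the defining markers DCN and PDGFRA below the limit. The 5 neuron markers summed to 3092 to 3434 in siPIR, against 2565 to 2812 in siCTR and 2666 to 2862 in NO, with RBFOX3, SYN1 and STMN2 not measured. The leukocyte sum was 339 to 363 in siPIR, against 185 to 203 in siCTR and 164 to 199 in NO. It rests on 4 of 5 listed genes with a probe set, of which CD14 alone was measured and PTPRC, CD3E and LYZ were not. The 5 keratinocyte markers, 4 with a probe set and KRT5, KRT14 and KRT1 not measured, summed to 2631 to 2743 in siPIR, against 3266 to 3656 in siCTR and 3227 to 3388 in NO. The part of these levels in the protocadherin differences was not tested.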

How the data were processed

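RNA from WM-266.4 cells was read on 6 HG-U133 Plus 2 arrays. The deposited intensity of each of 54675 probe sets was made by the authors with GCOS, per the submitters' processing notes, which name no version; the signal settings are unknown. After trimming 2% at each end, every array averaged 499.92, so arrays were already scaled to a common mean of about 500, and were used as deposited. The platform annotation named 1 gene for 41097 probe sets, several for 1801 and none for 11777.

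The pseudocount of 5.4 is the 10th percentile of all values. The 2 arrays of a pool were averaged as 1 sample. The comparisons were siPIR against siCTR, siPIR against NO, both at once, and siCTR against NO, by size alone. Every gene of the family is named; of each companion list, genes called against both controls and the 2 others with the largest difference from siCTR are named, and any further gene is marked. The members and lists were chosen with earlier results of these data known. Calls were tested on simulated bright values whose differences lay well above or well below the limit of 1. That check does not cover calls near the limit, dim genes or the spread between cultures. Alternatives were the pseudocount, the filter, probe set choice, quantile normalization, a log2 limit of 0.58 and leaving out each array. The 2 arrays of a pool limit only the technical precision, and n = 1 pool per group leaves the spread between cultures unknown. Python 3.11.15, numpy 2.4.6, pandas 2.3.3 and matplotlib 3.10.9 were used.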

Additional observations from a re-analysis of the deposited data

How the results depend on the processing

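The 3 PCDHB genes called against both controls came to 1 without _x_at probe sets (PCDHB14) and to 10 with a log2 limit of 0.58, and to 2 or 3 with 1 array left out. They stayed at 3 with the other pseudocounts, no filter, only bright genes and quantile normalization, and were 2 with the mean over probe sets (without PCDHB3). PCDHB14 was called in every setting. The PCDHB genes with siPIR arrays above all controls were 12 of 13, except 12 of 15 with no filter, 9 of 10 without _x_at probe sets and 13 of 13 without the second siPIR array. The median PCDHB difference from siCTR was 0.68 without _x_at probe sets and 0.69 to 0.88 with 1 array left out; that from NO was 0.71 and 0.73 to 0.91.

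The other protocadherins depended more on the settings. Their count of calls against both controls, in either direction, was 1 as reported (PCDHB18P) and 2 with no filter (PCDH15 added). It was 0 with the mean over probe sets, 0 without _x_at probe sets, 6 with a log2 limit of 0.58 and 0 to 3 with 1 array left out. The 6 include PCDHA9, which was lower in siPIR, and without the first NO array PCDHGB6 was called lower. At the limit of 0.58, 6.4% of all measured genes were called higher. The median difference of the other protocadherins from siCTR was 0.63 with 4 times the pseudocount, 0.48 with the mean over probe sets, 0.43 without _x_at probe sets and 0.61 to 0.68 with 1 array left out. That from NO was 0.35 with 4 times the pseudocount, 0.062 with no filter, 0.74 for the 5 bright genes, of which PCDHGA3 passed through siPIR alone, 0.12 without _x_at probe sets and 0.27 to 0.52 with 1 array left out. Leaving out _s_at probe sets too, a choice made after seeing the data, gave 1 PCDHB call, 0 other calls, PCDHB medians of 0.68 and 0.71, and medians of the others of 0.19 and -0.15. Some of these settings leave fewer genes or arrays, and the cause of the shifts was not tested.

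Of 352 PCDHB values for single genes, 4 changed sign, all of PCDHB4; of 374 values of the others, 15 did, among them PCDH7 with the mean over probe sets (0.18 from siCTR and 0.45 from NO). No called value changed sign. No paired analysis was possible because the numbers 1 and 2 name repeat arrays of 1 pool and the results come from no test. With 1 pool per group the spread between cultures is unknown, and values near the limit of 70.2 differ widely between repeat arrays.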
